A study of Mus musculus with 30 samples.

Results

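Introns of at most 200 nt that were listed as differentially retained made up 215 of the 474 distinct retained introns in the 4 splicing tables of a study of the RNA-binding protein NOVA2. Each member was an intron whose gap between the joined ends of the spliced isoform, read from the interval lists deposited with the tables, measured 200 nt or less, and an intron listed several times with different exon ends was counted once. The 215 introns lay in 192 host genes and took up 346 lines of the tables. All types of splicing event together gave 4914 distinct events, so the short introns were a small share of what was listed. The length of an intron alone chose them. Being listed at all already required a difference between groups, so the size of the differences is no finding.

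The series holds 30 libraries in 10 groups of 3, and the tables compare 18 of them in 6 groups of C57BL/6J mice. Cortical cells of Emx1-Cre and of Gad2-Cre animals were collected by fluorescence-activated sorting at embryonic day 18.5. For each Cre line a control group, labelled wild-type with that Cre, was set against a conditional knockout of Nova2, called cKO here. The cerebellar Purkinje layer was taken at postnatal day 28 from Pcp2-Cre controls and Pcp2-Cre Nova2-cKO mice. The other 12 libraries, in 4 groups, were not analysed here. Emx1 drives Cre in progenitors of the dorsal forebrain that give rise to excitatory neurons and glia, Gad2 drives it in inhibitory neurons, and Pcp2 drives it in Purkinje cells. The Purkinje layer was dissected rather than sorted, so it can hold other cerebellar cells, in which this Cre is not active. The labels do not say whether the 3 libraries of a group came from separate animals. No expression levels were used here, so the identity of the cells was not checked against marker genes. In RNA of many cells, a different mix of cells and a different choice of splicing within each cell cannot be told apart.

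An intron is retained when the spliceosome leaves it in an RNA that is otherwise spliced. A retained intron between coding exons often brings an early stop codon into frame, and such RNAs are commonly kept in the nucleus or degraded by nonsense-mediated decay. Very short introns are recognised across the intron itself, with little room between the 5′ splice site, the branch point and the 3′ splice site. NOVA proteins are neuronal and bind clusters of the tetramer YCAY, where Y is a pyrimidine. Their best known role is to raise or lower the inclusion of cassette exons, depending on where they bind.

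The sequences of 8 introns are shown because they were listed in 3 tables or were among the 10 largest changes listed in both cortical knockout tables. They lie between coding exons, and no coding transcript of GENCODE M21 carries them as untranslated sequence. They were read, on the strand of the gene, from GENCODE M21 transcripts of mm10 that keep the intron. Capitals mark the YCAY tetramers found on the gene's strand, which are TCAT and TCAC where the first base is a T, and CCAT and CCAC where it is a C. The group shows how little sequence some of these introns have: Dimt1 and Tubgcp6 hold no tetramer, while Cpsf1, Dus3l and Nme4 hold 2 each.
Cpsf1 intron, 76 nt, chr15:76600392-76600467, minus strand: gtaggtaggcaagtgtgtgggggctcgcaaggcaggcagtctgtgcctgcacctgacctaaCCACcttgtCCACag
Dus3l intron, 104 nt, chr17:56768414-56768517, plus strand: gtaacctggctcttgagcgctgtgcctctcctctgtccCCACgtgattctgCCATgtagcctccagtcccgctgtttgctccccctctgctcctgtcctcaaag
Nop56 intron, 83 nt, chr2:130276624-130276706, plus strand: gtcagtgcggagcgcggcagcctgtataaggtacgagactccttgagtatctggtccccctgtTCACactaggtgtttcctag
Jtb intron, 196 nt, chr3:90232233-90232428, plus strand: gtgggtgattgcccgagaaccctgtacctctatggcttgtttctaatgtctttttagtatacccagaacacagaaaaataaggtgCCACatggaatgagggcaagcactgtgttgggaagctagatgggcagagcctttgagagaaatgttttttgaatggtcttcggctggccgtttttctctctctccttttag
Tubgcp6 intron, 81 nt, chr15:89100504-89100584, minus strand: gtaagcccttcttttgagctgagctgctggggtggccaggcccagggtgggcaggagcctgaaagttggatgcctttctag
Nme4 intron, 129 nt, chr17:26093730-26093858, minus strand: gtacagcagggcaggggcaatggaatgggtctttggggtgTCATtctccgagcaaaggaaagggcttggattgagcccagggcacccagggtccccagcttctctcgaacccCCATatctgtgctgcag
Vars intron, 83 nt, chr17:35004894-35004976, plus strand: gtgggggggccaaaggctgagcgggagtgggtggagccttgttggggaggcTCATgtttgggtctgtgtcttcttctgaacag
Dimt1 intron, 75 nt, chr13:106949617-106949691, plus strand: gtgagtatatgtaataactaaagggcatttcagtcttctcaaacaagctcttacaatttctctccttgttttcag

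The 215 introns ranged from 66 to 198 nt with a median of 96 nt, and 115 of them were shorter than 100 nt. All 215 were annotated GENCODE introns. Of these, 206 lay between coding exons, 2 in a 3′ UTR, 1 in a 5′ UTR and 6 in other transcripts only. The kept form was itself annotated for 193 introns. Each was counted once, in the first class that applied, so an intron can also belong to a later class. In that order, 10 were kept within a coding sequence and 152 in a retained-intron transcript. Another 13 were in a transcript marked for nonsense-mediated decay, 12 in a processed transcript and 6 in a coding transcript outside its coding sequence. Some of the 152, among them those of Dennd6b and Kifc2, are also kept as untranslated sequence of a transcript with a coding sequence. None was the first intron of the transcript used, and 20 were the last.

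Reading frame could be followed for 184 coding introns with a sequence. In 139 of them (75.5%) the intron held a stop codon in frame with the exon before it. This share was not computed for other short introns, so it cannot be called particular to the listed ones. Of the 184, another 36 had no stop but shifted the frame, and 9 had no stop and a length that is a multiple of 3. The sequences above show all these outcomes. Keeping the Nop56, Jtb, Cpsf1, Tubgcp6 or Dimt1 intron adds a stop codon, and keeping the Vars or Dus3l intron shifts the frame. Keeping the 129 nt Nme4 intron leaves the frame open, and an annotated coding sequence runs through it.

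All 193 introns with a sequence began with GT and ended with AG, which also checked the coordinates. At least 1 YCAY tetramer was present in 161 of them (83.4%), and 55 (28.5%) had 3 or more. Among 4470 other GENCODE introns of at most 200 nt that a transcript keeps, 81.5% held a tetramer and 29.2% held 3 or more. The mean density was 1.72 tetramers per 100 nt in the listed introns and 1.65 in the others, and the median GC content was 56.2% and 56.0%. By these letters the listed short introns looked like other short introns, and this says nothing about where NOVA2 binds. The 5′ splice site matched the mammalian consensus at a median of 6 of 9 bases in both sets. Pyrimidines filled a median of 75% of the 20 bases before the last 3 in the listed introns and 70.0% in the others.

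A level below is the deposited inclusion rate of a group, a fraction from 0 to 1. The tables name the retained isoform before the spliced one, and the rate is read here as the fraction of RNA that keeps the intron. The authors pooled each group into 1 level, so no spread between libraries can be given, and the only error measure is their FDR per intron, which was at most 0.05 for every listed event. Every listed event also differed by at least 0.1. Coverage is the authors' value for the event, at least 20 by their filter, and it is the only measure of depth in the tables. The libraries were depleted of ribosomal RNA and not selected for poly(A), so unspliced precursor RNA can count as retention.

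In sorted Emx1-Cre cells, 120 short introns in 112 genes were listed, and 95 of them (79.2%) were kept more often in the cKO. Over all 265 retained introns in that table the share was 82.3%, and among the 145 longer than 200 nt it was 84.8%. Cassette exon events split differently, with 46.9% of 912 included more often in the cKO. The short introns therefore followed the direction of retained introns in general. Their median level was 0.204 in the controls and 0.31 in the cKO, and the median difference was 0.138 against 0.156 for the longer introns. The cKO level rose past 0.5 from a control level below it for 19 short introns, and 5 crossed in the opposite direction.

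In Gad2-Cre cells, 85 short introns in 81 genes were listed, of which 57 (67.1%) were kept more often in the cKO. The share over all 217 retained introns was 72.8%, over the 132 longer introns 76.5%, and over 726 cassette exon events 36.2%. Median levels were 0.248 in controls and 0.279 in the cKO, with a median difference of 0.126. The 28 short introns that were kept less often fell by a median of 0.184, and the 57 that were kept more often rose by a median of 0.165. In this table, 16 introns crossed 0.5 upward and 8 downward.

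In the Purkinje layer the order of the groups is not named in the sources used here, and they are called group 1 and group 2. Of 28 short introns in 26 genes, 26 (92.9%) had the higher level in group 2, against 96.9% of all 65 retained introns and 70.5% of 268 cassette exon events. Median levels were 0.134 in group 1 and 0.301 in group 2.

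Between the controls of the cortical lines, 52 short introns were listed, and 46 (88.5%) were kept more often in Gad2-Cre than in Emx1-Cre cells. Over all 105 retained introns the share was 84.8%, and over 534 cassette exon events 60.5%. Median levels were 0.187 in Emx1-Cre and 0.356 in Gad2-Cre controls. The median difference, 0.175, is given for introns that passed the same limits, so it is not a measure of how far the cell classes differ over all introns. The control libraries are the same as those in the knockout tables, so values of 1 intron in both kinds of table are not independent.

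**Figure D1:**
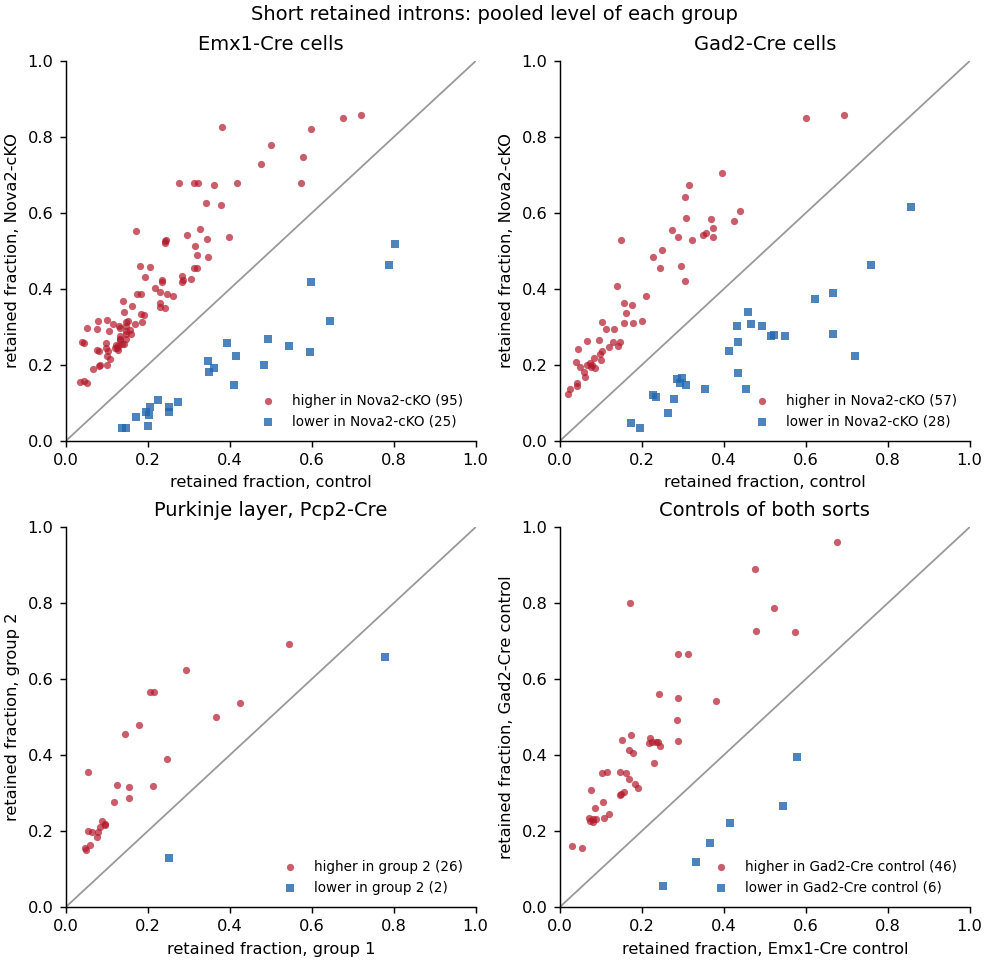
Each point is 1 short intron, with the retained fraction (0 to 1) of the first group on the x axis and of the second group on the y axis, and the grey line marks equal levels. Circles lie above the line for 95 introns in Emx1-Cre cells, 57 in Gad2-Cre cells, 26 in the Purkinje layer and 46 between the controls, and the empty band along the line reflects the authors' minimum difference of 0.1.

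Srsf1, Hnrnpa2b1, Nop56 and Jtb each held a short intron listed in both cortical knockout tables and in the Purkinje table. Srsf1 encodes a splicing activator of the SR protein family that is known to control its own RNA. Its 196 nt intron on chromosome 11 (88049216 to 88049411) rose from 0.158 to 0.28 in Emx1-Cre and from 0.177 to 0.31 in Gad2-Cre cells. In the Purkinje layer it stood at 0.365 in group 1 and 0.499 in group 2, so both cerebellar levels were above all 4 cortical ones. With coverages of 1359, 1169 and 742 it was the best covered short intron in each of these tables. Its FDR in the authors' deposited tables was 7.7e-22, 2.2e-19 and 5.03e-06.

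Hnrnpa2b1 encodes an hnRNP protein that binds RNA in the nucleus. Its 156 nt intron lies in the 3′ UTR, so keeping it does not alter the coding sequence. The level rose from 0.32 to 0.456 in Emx1-Cre and from 0.348 to 0.543 in Gad2-Cre cells, and was 0.425 and 0.537 in Purkinje groups 1 and 2. The Gad2-Cre cKO level and the Purkinje group 2 level were the highest of the 6.

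Nop56 encodes a core protein of box C/D small nucleolar RNPs, which guide methylation of ribosomal RNA. Its intron, shown above, had nearly the same pair of levels in each table: 0.0791 and 0.236 in Emx1-Cre, 0.0977 and 0.228 in Gad2-Cre, and 0.0883 and 0.225 in the Purkinje layer. Jtb encodes a small transmembrane protein. Its intron went from 0.138 to 0.368 in Emx1-Cre cells, from 0.157 to 0.363 in Gad2-Cre cells, and from 0.116 in group 1 to 0.276 in group 2 of the Purkinje layer. The fraction kept was thus over 1.5 times as high in the second group of every pair for Nop56 and Jtb. Levels of different tables are set side by side here although each table was filtered on its own.

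The introns of Cpsf1, Dus3l, Vps16 and Tmem208 were listed in both cortical knockout tables and between the controls. Cpsf1, a subunit of the complex that cleaves pre-mRNA before polyadenylation, had levels of 0.225 in Emx1-Cre controls, 0.106 in Emx1-Cre cKO, 0.434 in Gad2-Cre controls and 0.177 in Gad2-Cre cKO. It fell in both knockouts, and the Gad2-Cre control was the highest of its 4 levels. Dus3l encodes a dihydrouridine synthase that acts on RNA. Its levels were 0.245 and 0.528 in Emx1-Cre control and cKO, and 0.424 and 0.578 in Gad2-Cre control and cKO, so both rose and ended close together.

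Vps16 encodes a subunit of the HOPS and CORVET complexes, which tether vesicles to endosomes and lysosomes. Its 140 nt intron was the only short intron listed in opposite directions in the cortical knockouts: it rose from 0.216 to 0.402 in Emx1-Cre and fell from 0.432 to 0.302 in Gad2-Cre cells. Coverage was 313 and 217, and the FDR in the authors' deposited tables was 3.4e-07 and 0.0111. The difference between these changes was not tested. The level was higher in Gad2-Cre than in Emx1-Cre controls and lower in Gad2-Cre than in Emx1-Cre cKO cells.

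**Figure D2:**
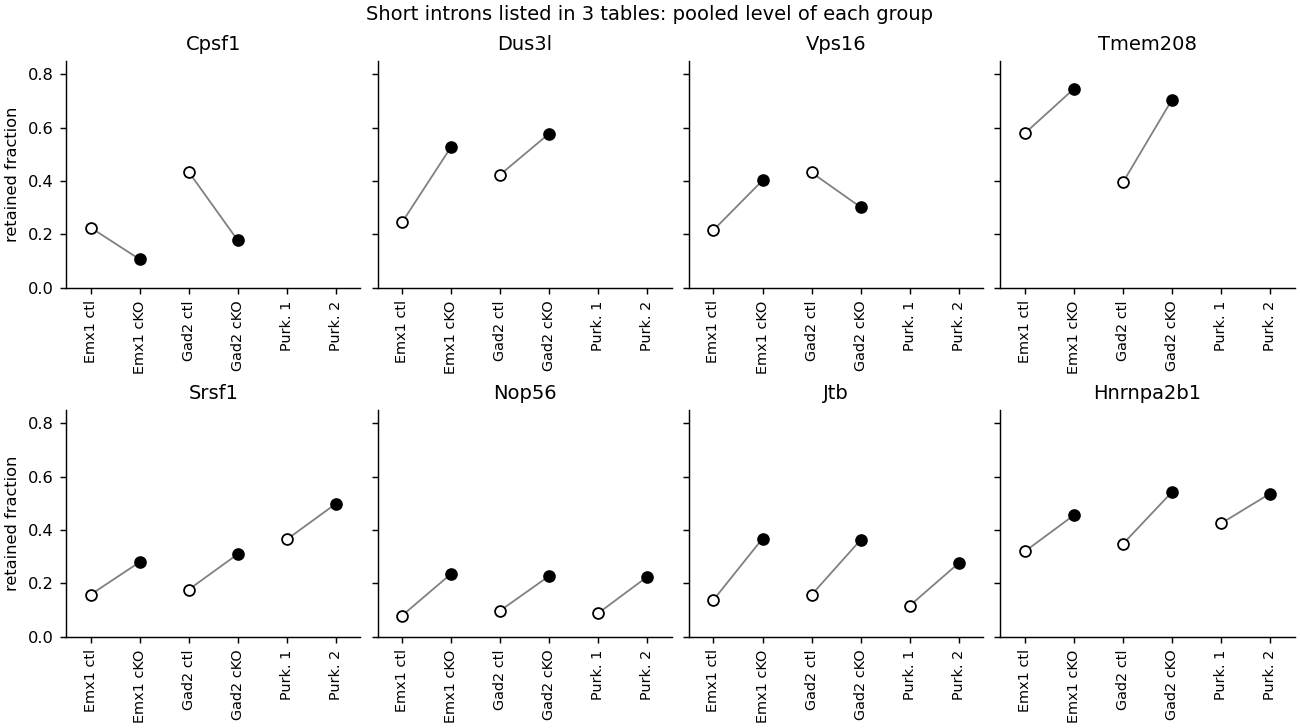
Retained fraction of the 8 short introns listed in 3 tables, with open circles for controls or Purkinje group 1, filled circles for cKO or Purkinje group 2, and lines joining groups of 1 comparison. The upper genes have no Purkinje values because they were not listed there, and Vps16 is the only panel in which the cortical lines slope in opposite directions.

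The Emx1-Cre and Gad2-Cre knockout tables share no libraries. They had 30 short introns in common, in 29 genes, which is 25% of the Emx1-Cre members and 35.3% of the Gad2-Cre members. Of these, 24 rose in both, 5 fell in both and 1, Vps16, moved in opposite directions, so 96.7% had the same direction. Among longer introns 56 were shared, which is 38.6% and 42.4% of the longer introns of each table, and 54 of them (96.4%) had the same direction. Shared direction was therefore as frequent for longer introns, while a smaller share of the short introns was listed in both tables. The size of the difference was larger in Emx1-Cre for 15 of the 30 and larger in Gad2-Cre for the other 15, with medians of 0.168 and 0.184.

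By the mean of both tables the largest shared rise was in Chkb, which encodes a choline kinase of phosphatidylcholine synthesis. Its 169 nt intron rose from 0.275 to 0.68 in Emx1-Cre cells and from 0.226 to 0.483 in Gad2-Cre cells. A 135 nt version with another 3′ splice site, contained in the first, rose from 0.36 to 0.674 in Emx1-Cre cells at a coverage of 24.1. Nme4, a mitochondrial nucleoside diphosphate kinase, rose from 0.235 to 0.419 in Emx1-Cre and from 0.314 to 0.674 in Gad2-Cre cells, where coverage was 33.7. This is the intron shown above that leaves the frame open.

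Tmem208, an endoplasmic reticulum protein, had overlapping introns that end at the same 3′ splice site. The 149 nt intron rose from 0.205 to 0.457 in Emx1-Cre cells at a coverage of 363 and from 0.272 to 0.554 in Gad2-Cre cells at a coverage of 303. The 123 nt intron rose from 0.579 to 0.746 and from 0.395 to 0.705. These are alternatives of 1 RNA and share reads, so they are not separate events.

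Dimt1, which methylates ribosomal RNA, rose from 0.343 to 0.531 in Emx1-Cre and from 0.289 to 0.537 in Gad2-Cre cells. Pusl1, a member of the pseudouridine synthase family, rose from 0.145 to 0.313 and from 0.248 to 0.503. Pus3, another pseudouridine synthase, was listed for Emx1-Cre cells, where its 92 nt intron rose from 0.342 to 0.627; it overlaps a gene on the opposite strand, Hyls1. With Dus3l, Nop56 and Dimt1 above, these are enzymes or cofactors of RNA modification. They were picked out after their values were seen, and whether such genes are over-represented was not tested.

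Of the 5 introns that fell in both knockouts, Tubgcp6 and Vars had the largest mean difference over both tables, while in Gad2-Cre cells alone Cpsf1 fell most. Tubgcp6 encodes a component of the gamma-tubulin ring complex, which seeds microtubules. Its intron fell from 0.595 to 0.233 in Emx1-Cre and from 0.516 to 0.277 in Gad2-Cre cells. Vars encodes the valyl-tRNA synthetase, and its intron fell from 0.41 to 0.147 and from 0.493 to 0.302. Zswim8, a substrate receptor of a ubiquitin ligase, fell from 0.195 to 0.0747 and from 0.263 to 0.0717. Git1, a regulator of ARF GTPases at synapses, fell from 0.204 to 0.0875 and from 0.234 to 0.116. The Cpsf1 values are given above. All 5 levels stood below 0.5 in the knockout of either line, so the spliced form was the more frequent one there.

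**Figure D3:**
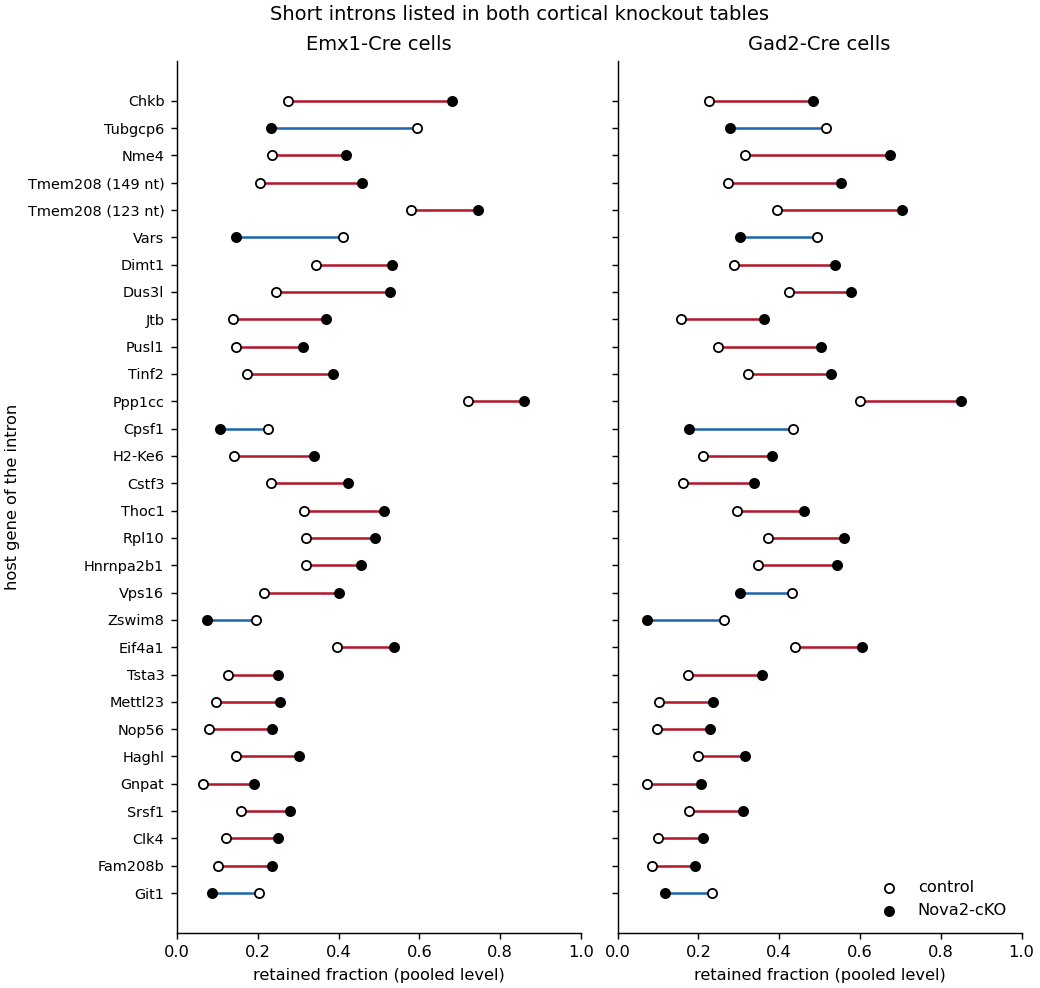
Retained fraction in control (open) and Nova2-cKO (filled) for the 30 short introns listed in both cortical knockout tables, ordered by the mean size of the difference, with red lines for rises and blue lines for falls. The lines are red in both panels for 24 introns, blue in both for 5 and of different colour for Vps16.

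Among introns of the Emx1-Cre table, Dennd6b, a regulator of RAB GTPases, had the largest rise, from 0.381 to 0.827 at a coverage of 45.2. Kifc2, a minus-end directed kinesin, rose from 0.17 to 0.552. In Gad2-Cre controls the Kifc2 intron was at 0.8, the largest difference from Emx1-Cre controls of any short intron, at a coverage of 25. Arrdc1, an arrestin-domain protein of extracellular vesicles, rose from 0.312 to 0.68. Atg16l2, a homologue of an autophagy protein, rose from 0.323 to 0.678. Rpl7a, a protein of the large ribosomal subunit, rose from 0.242 to 0.526 at a coverage of 139.

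Besides Tubgcp6 and Vars, the largest falls in Emx1-Cre cells began from control levels of 0.484 to 0.802. A large fall cannot begin from a low level, so this is no finding. Map4k2, a protein kinase of stress signalling, fell from 0.788 to 0.463. Bag6, a chaperone for membrane proteins and misfolded proteins, fell from 0.802 to 0.518. The transcription factor Glis2 fell from 0.644 to 0.316, and the zinc finger gene Zfp687 from 0.545 to 0.25. Psmb10, a proteasome subunit, fell from 0.484 to 0.2, and Fcho1, an initiator of endocytosis, from 0.493 to 0.269. Of these, Psmb10 overlaps a gene on the opposite strand, Gm16156, and coverage ran from 28.6 for Glis2 to 56.2 for Bag6.

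In Gad2-Cre cells, Fam98a had the largest rise, from 0.149 to 0.528 at a coverage of 27.0. Appl2, an adaptor on early endosomes, rose from 0.306 to 0.641. Gmppb, an enzyme of GDP-mannose synthesis, rose from 0.14 to 0.408, and Kdelc1 rose from 0.308 to 0.587. The largest fall was in Man2b1, the lysosomal alpha-mannosidase, from 0.719 to 0.224, at a coverage of 24.1 that is near the lowest listed. Sema3f, a secreted guidance molecule, fell from 0.667 to 0.281. Cpne1, a calcium-dependent membrane binding protein, fell from 0.453 to 0.136.

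Mcoln1, a cation channel of lysosomes, fell from 0.622 to 0.374 in Gad2-Cre cells. In the Purkinje layer its level was 0.0941 in group 1 and 0.216 in group 2. Zfp335, a chromatin-associated zinc finger protein, fell from 0.76 to 0.464, and Arl16, an ARF-like GTPase, from 0.55 to 0.275. Slx1b, a subunit of a structure-specific nuclease, fell from 0.667 to 0.389.

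Among the controls, several introns stood higher in Gad2-Cre cells. Sema3f was at 0.311 in Emx1-Cre and 0.667 in Gad2-Cre controls, Slx1b at 0.288 and 0.667, and Cpne1 at 0.174 and 0.453. These Gad2-Cre control levels are the same ones from which the falls above start, because the libraries are shared. Wdr90, a centriolar protein, was at 0.477 and 0.889. Oaz1, the antizyme that marks ornithine decarboxylase for degradation, was at 0.242 and 0.561, and the same intron rose from 0.242 to 0.521 in the Emx1-Cre cKO. Atp13a1, an ATPase of the endoplasmic reticulum, was at 0.152 and 0.438, and Adamts10, a secreted metalloprotease, at 0.677 and 0.96.

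The introns kept less often in Gad2-Cre controls were few. Exosc9, a subunit of the RNA exosome, was at 0.331 in Emx1-Cre and 0.118 in Gad2-Cre controls at a coverage of 212, and its intron overlaps the opposite-strand gene Ccna2. Evl, an actin regulator, was at 0.414 and 0.221, and the histone acetyltransferase gene Ep300 at 0.25 and 0.0533. Zfp687 and the 134 nt intron of Rhot2 were also lower, and the shorter Tmem208 intron completed the 6. The Exosc9, Evl and Rhot2 introns, and the Wdr90 intron above, each overlap a gene on the opposite strand, and the counting is not known to use strand. Without introns that overlap such a gene or hold a small RNA gene, 3 of 47 were lower in Gad2-Cre controls.

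In the Purkinje layer the largest differences were in Mrps10, a mitochondrial ribosomal protein, whose overlapping introns of 84 and 81 nt were at 0.205 and 0.214 in group 1 and both at 0.566 in group 2. Kif22, a chromosome-binding kinesin, was at 0.293 and 0.623, and keeping its 90 nt intron leaves an annotated reading frame open. Mast1, a neuronal microtubule-associated kinase with the shortest member at 66 nt, was at 0.143 and 0.455. Rad9a, a clamp protein of the DNA damage checkpoint, was at 0.178 and 0.479. Coverage was low for Kif22, Mast1 and Rad9a, at 39.0, 29.0 and 38.4. Their FDR in the authors' deposited tables was 0.0434, 0.0429 and 0.0483. Cnot6, a deadenylase, was at 0.0545 and 0.354 at a coverage of 29.0, and the same intron rose from 0.356 to 0.547 in Gad2-Cre cells. An overlapping Cnot6 intron of 107 nt rose from 0.305 to 0.427 in Emx1-Cre cells at a coverage of 183. Only Mib2, a ubiquitin ligase of Notch signalling, and Suds3, a subunit of the Sin3 corepressor, were lower in group 2, from 0.252 to 0.128 and from 0.778 to 0.659.

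Gene lists give the functions by which members can be grouped. Their counts are to be read beside all short introns, of which 79.2% were higher in the cKO with a median difference of 0.138 in Emx1-Cre cells, and 67.1% with a median of 0.126 in Gad2-Cre cells. Of 197 genes on a list of RNA-binding and splicing factors, 9 held 11 short introns. In Emx1-Cre cells 6 of the 7 listed were kept more often in the cKO, and in Gad2-Cre cells 6 of 9, with median differences of 0.129 and 0.133. Both shares are near those of all short introns. Besides Srsf1 and Hnrnpa2b1, the kinase gene Clk4, which phosphorylates SR proteins, rose from 0.122 to 0.251 and from 0.099 to 0.212 in the Emx1-Cre and Gad2-Cre knockouts. Cstf3, a cleavage stimulation factor, rose from 0.233 to 0.424 and from 0.162 to 0.337, and Thoc1, of the THO complex that couples transcription to export, from 0.314 to 0.513 and from 0.296 to 0.461. The mRNA export receptor Nxf1 fell from 0.353 to 0.135 in Gad2-Cre cells.

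A list of 117 genes of translation and the ribosome had 6 genes with 8 short introns, 4 of 6 higher in the Emx1-Cre cKO and 4 of 5 in the Gad2-Cre cKO. The medians were 0.149 and 0.164, beside 0.138 and 0.126 over all short introns, of which 79.2% and 67.1% were higher in the cKO. This list is not complete either. Rpl7a, which rose in Emx1-Cre cells, is not on it. Neither is the ribosomal protein gene Rpl9, whose intron fell from 0.458 to 0.34 in Gad2-Cre cells at a coverage of 258. Rpl10, of the large ribosomal subunit, held 2 of the 8 introns. Its 81 nt intron rose from 0.319 to 0.49 in Emx1-Cre and from 0.373 to 0.56 in Gad2-Cre cells, and its 80 nt intron rose from 0.326 to 0.557 in Emx1-Cre cells. Eif4a1, an RNA helicase of translation initiation, rose from 0.397 to 0.537 and from 0.439 to 0.604, while Vars fell in both.

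For membrane trafficking and the lysosome, 8 of 85 genes held a member, with 5 of 5 introns higher in the Emx1-Cre cKO and 1 of 4 in the Gad2-Cre cKO. The medians were 0.213 and -0.187, beside 0.138 and 0.126 over all short introns, of which 79.2% and 67.1% were higher in the cKO. With so few introns the counts say little of the list, which is not complete. Appl2, the endosomal adaptor, rose and Mcoln1, the lysosomal channel, fell in Gad2-Cre cells, and neither is on it. Vps16 is in both counts, and the difference between them was not tested. Tmem214, a membrane protein of the endoplasmic reticulum, is among those that fell in Gad2-Cre cells, from 0.522 to 0.279. For GTPase regulators and kinases 8 of 102 genes held a member, with 3 of 5 introns higher in the Emx1-Cre cKO and 1 of 3 in the Gad2-Cre cKO, and medians of 0.11 and -0.119. Rhot2, a mitochondrial GTPase, had a 77 nt intron at 0.124 in group 1 and 0.321 in group 2 of the Purkinje layer, which overlaps Gm26694 on the opposite strand. For cytoskeleton and motors 4 of 89 genes held a member, and 1 of 3 introns was higher in the Emx1-Cre cKO.

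The other lists had few short introns. Of 101 genes of the synapse and ion channels, only Ppfia3, a presynaptic scaffold protein, held one, which fell from 0.25 to 0.0878 in Emx1-Cre cells at a coverage of 34.1. Chromatin and transcription had 3 of 135 genes, among them Sirt7, a deacetylase, which rose from 0.129 to 0.302 in the Emx1-Cre cKO, and Hdac6, another deacetylase, at 0.12 in Emx1-Cre and 0.244 in Gad2-Cre controls. Protein quality control and ubiquitin had 4 of 82 genes. Stub1, a ubiquitin ligase that works with chaperones, rose from 0.283 to 0.435 in the Emx1-Cre cKO at a coverage of 740, and Fbxl6, an F-box protein, fell from 0.307 to 0.146 in the Gad2-Cre cKO. The Stub1 intron holds the microRNA gene Mir3082 and overlaps Jmjd8 on the opposite strand, and the part of their RNA in this level was not tested. Metabolism and mitochondria had 2 of 82 genes, the mitochondrial DNA polymerase gene Polg, which rose from 0.241 to 0.349 in the Emx1-Cre cKO, and the citrate carrier gene Slc25a1, at 0.0297 in Emx1-Cre and 0.159 in Gad2-Cre controls.

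Within the short introns, the share kept more often in the cKO was higher in the longer ones. In Emx1-Cre cells it was 74.2% of 62 introns under 100 nt, 80.6% of 36 introns of 100 to 149 nt and 90.9% of 22 introns of 150 to 200 nt. In Gad2-Cre cells the shares were 62.8% of 43, 66.7% of 24 and 77.8% of 18. The order was the same in both, with few introns in the longest class, and it did not continue past 200 nt. No test was made of it.

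**Figure D4:**
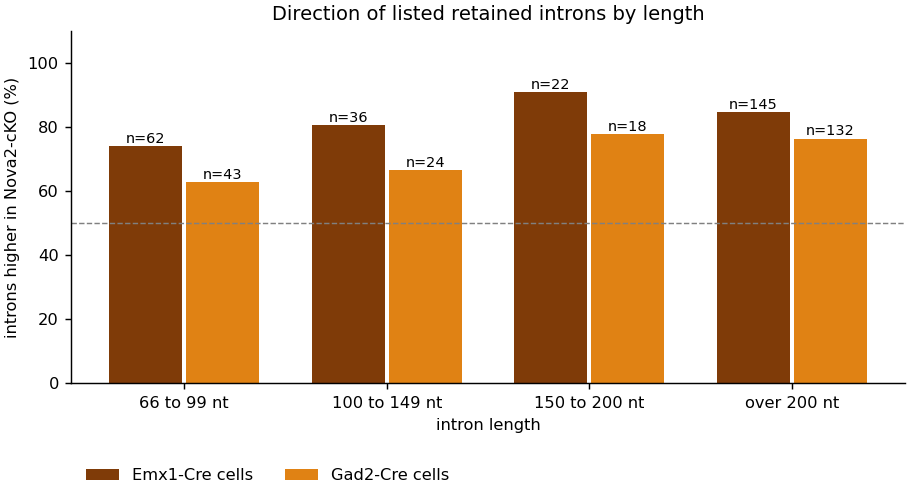
Share of listed retained introns with the higher level in Nova2-cKO (y axis, percent) by intron length (x axis) in Emx1-Cre and Gad2-Cre cells, with the number of introns above each bar and a dashed line at 50%. The share grows from 74.2% to 90.9% in Emx1-Cre and from 62.8% to 77.8% in Gad2-Cre cells across the short classes, and introns over 200 nt stand at 84.8% and 76.5%.

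In the Emx1-Cre knockout table direction also went with coverage. In the Emx1-Cre table, 55 of 60 short introns (91.7%) with a coverage of at least 100 were higher in the cKO, against 17 of 27 (63.0%) with a coverage under 50. In the Gad2-Cre table the counts were 23 of 29 (79.3%) and 16 of 24 (66.7%). Over all Gad2-Cre introns with a coverage of at least 50, however, the share was 67.2% (41 of 61), so no steady order was seen. In Emx1-Cre cells that share was 83.9% (78 of 93). The Purkinje and control tables did not show the Emx1-Cre order. In the Purkinje layer 8 of 10 well covered introns and 11 of 11 with a coverage under 50 were higher in group 2. Between the controls the share was 85.7% in both classes. In the cortical knockout tables the well covered introns had smaller differences, with a median size of 0.139 against 0.22 in Emx1-Cre and 0.134 against 0.241 in Gad2-Cre cells. An event with fewer reads needs a larger difference to be listed, so large values such as those of Dennd6b, Kifc2, Fam98a and Man2b1 are the less precise ones. Apart from Srsf1, Hnrnpa2b1 and Stub1, the only short intron with a coverage over 400 was the 76 nt intron of Tecr, a reductase of very long-chain fatty acid synthesis. It rose from 0.131 to 0.264 in Emx1-Cre cells at a coverage of 1043, with an FDR of 2.02e-25 in the authors' deposited table.

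**Figure D5:**
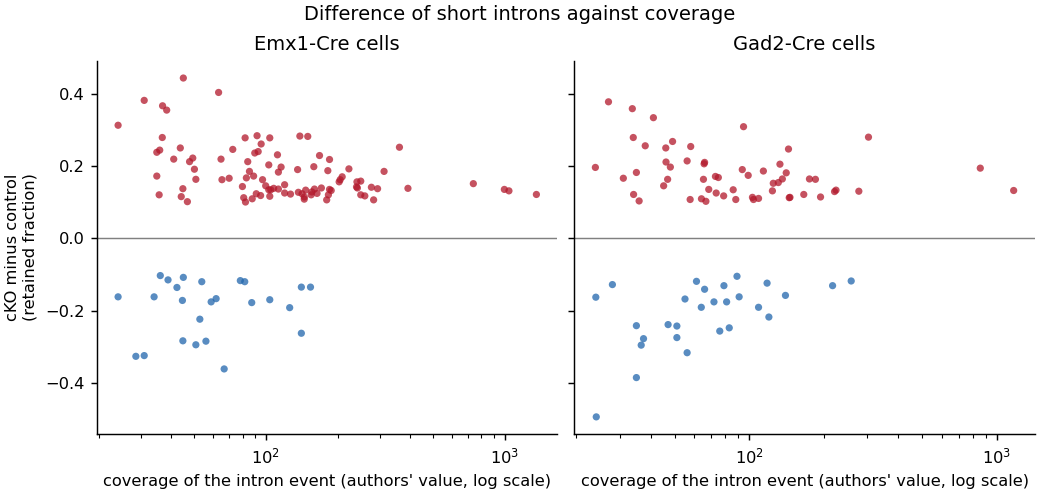
Difference in retained fraction, cKO minus control, of each short intron (y axis) against the authors' coverage of the event on a log scale (x axis) in Emx1-Cre and Gad2-Cre cells. Rises are red and falls blue, no fall has a coverage over 400, and the gap around 0 is the authors' minimum difference of 0.1.

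Base composition differed by direction in both cortical tables. Introns that rose had a median GC content of 55.4% in Emx1-Cre and 51.3% in Gad2-Cre cells, and those that fell 59.8% and 58.9%. A tetramer was present in 79.5% of those that rose and 95% of those that fell in Emx1-Cre cells, and in 88.2% and 83.3% in Gad2-Cre cells, so that order was not shared by the tables. The groups that fell held 20 and 24 introns with a sequence, and these differences were not tested. Whether the intron held a stop codon went with little difference in Emx1-Cre cells, where 62 of 78 introns with a stop (79.5%) and 15 of 19 that shifted the frame without one (78.9%) were higher in the cKO. In Gad2-Cre cells the counts were 35 of 49 (71.4%) and 10 of 18 (55.6%).

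At the length limit, the longest members were in Jtb and Srsf1 at 196 nt, Thoc1 at 197 nt and the host of the small nucleolar RNA Gm24299, Taf1d, at 198 nt. The Taf1d intron rose from 0.373 to 0.537 in Gad2-Cre cells. The shortest introns left out were in Nudt14 at 201 nt, at 0.0585 and 0.167 in Emx1-Cre control and cKO, and in Cntn2 and Alkbh6 at 202 nt. Cntn2 had 0.325 and 0.185 in Emx1-Cre control and cKO, and Alkbh6 had 0.178 and 0.299. The members just inside the limit rose wherever they were listed in a cortical table, and of those just outside it Nudt14 and Alkbh6 rose while Cntn2 fell.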

How the data were processed

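Alternative splicing was quantified by the authors with Quantas on mm10, per the labels and file headers, and the submitters' processing notes also name kallisto and edgeR. No source used here names the aligner, tool versions or strandedness. The deposited inclusion levels are a fraction per group, pooled by the authors over 3 libraries. The authors do not define the deposited coverage, a signal with 1 value for each event, and library depth is unknown. The deposited p-value and FDR of each event are the authors', as is the score for the difference of levels, which equalled group 1 minus group 2 within 3e-08. The interval lists deposited with the tables gave the intron ends.

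Lines that describe 1 intron with the same levels were merged and the highest FDR kept. Differences were computed here as the second group minus the first. The labels name the control first in the cortical knockout tables and Emx1-Cre first in the table of controls. Introns were annotated with GENCODE M21, whose host genes were used to count genes, and sequences came from its transcripts. Counts and medians over the members were set beside those over all retained introns, longer introns and cassette exons, with no test, since the tables hold no value per library. The scripts used Python 3.11.15, pandas 2.3.3, numpy 2.4.6, scipy 1.17.1 and matplotlib 3.10.9, and the intron-length and tetramer steps were tested on simulated data.

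Introns named are the 8 with the largest difference in each direction of a table, those in 3 tables or in opposite directions, the 10 largest in both cortical tables, the 3 largest of each gene list and 3 on each side of the length limit. Others were chosen after their values were seen: Zswim8, Git1, Clk4, Cstf3, Eif4a1, Rpl9, the 107 nt intron of Cnot6 and, by coverage, Tecr. The 9 gene lists cover RNA binding, chromatin, translation, synapse, cytoskeleton, GTPase regulators and kinases, trafficking, metabolism and protein quality control. The members and lists were chosen with earlier results of these data known. Alternatives were the length limit, the limits on coverage, FDR and difference, 1 intron per gene, and leaving out introns that overlap an opposite-strand gene or hold a small RNA gene, which was added after seeing the data.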

Additional observations from a re-analysis of the deposited data

How the results depend on the processing

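Of 63 alternative values over 9 results, 56 stayed within the 95% counting interval of a share or within 1.5 times a median, and none reversed. All alternatives except the longer length limit kept subsets of the same introns with the same pooled levels, so large moves were unlikely from the start. The interval counts introns, which are not replicates, and does not measure variation between libraries. With differences of at least 0.2, the median difference was 0.239 in Emx1-Cre, 0.209 in Gad2-Cre and -0.321 (group 1 minus group 2) in the Purkinje layer, since smaller differences are left out by construction. With that limit or an FDR of at most 0.01, 0% of the Purkinje introns were higher in group 1, over 6 and 7 introns. With the same limits, 100% of the introns in both cortical tables had the same direction, over 5 and 18 introns, because Vps16 dropped out. The share higher in the cKO ranged from 76.5% to 83.9% in Emx1-Cre and from 57.1% to 76.5% in Gad2-Cre cells over all alternatives. The lowest Gad2-Cre share, 16 of 28 introns, came with differences of at least 0.2, so rises and falls were closer to even there. The highest, 39 of 51, came with an FDR of at most 0.01. The share of introns higher in Emx1-Cre controls ranged from 6.38% to 11.9%. No paired analysis was possible because the tables hold 1 pooled level per group, and no replicate could be left out for the same reason. Coverage under 50 limits the precision of single levels. It was found at 27 of 120 short introns in Emx1-Cre cells, 24 of 85 in Gad2-Cre cells and 11 of 28 in the Purkinje layer.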

Other observations

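Several genes held more than 1 short intron: 22 of the 192 host genes, with at most 3 in Ctu2, which takes part in thiolation of tRNA. The Ctu2 introns of 80 and 73 nt rose in the Emx1-Cre cKO, from 0.168 to 0.307 and from 0.155 to 0.291, and its 82 nt intron was at 0.146 in Emx1-Cre and 0.356 in Gad2-Cre controls. The Oaz1 introns of 78 and 74 nt both rose in the Emx1-Cre cKO, from 0.242 to 0.521 and from 0.379 to 0.62, and the second holds the microRNA gene Mir1982. Not all introns of 1 gene moved together in that comparison. In Aup1, 1 intron rose from 0.104 to 0.29 and another fell from 0.274 to 0.101. In Atp13a1, 1 intron rose from 0.152 to 0.315 and another fell from 0.137 to 0.034. Coverage of these falls was 44.8 and 36.2. In Mybbp1a, a nucleolar protein gene, a 90 nt intron fell from 0.171 to 0.0627 in the Emx1-Cre cKO, and a separate 96 nt intron, listed only between the controls, was at 0.0704 in Emx1-Cre and 0.234 in Gad2-Cre cells. These genes were chosen after their values were seen.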
